A study of Homo sapiens with 4 samples.

Results

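The forkhead transcription factors of 4 human leiomyosarcoma lines are described here across the lines. The members are all gene symbols of the expression table that consist of FOX, a letter from A to S and a number, which gave 43 of 23577 genes. Genes whose names add further letters, such as FOXO3B or FOXD2-AS1, fall outside this rule. Leiomyosarcoma is a cancer that arises from smooth muscle, often in the uterus. RKN, SKLMS1, SKN and SKUT1 are established lines of it, grown untreated in medium with 10% serum, and each was sequenced as a single poly(A) RNA library of 75 bp reads. The labels name no engineered allele, agent or time point, so the lines themselves are the only contrast. A line is a single tumour-derived culture, and a difference between lines has no replicate check and no test.

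Forkhead proteins share a winged-helix DNA-binding domain and are named by subfamily letter. Several of them pattern mesoderm and mesenchyme in the embryo, and some can open compacted chromatin. FOXM1 drives the genes of mitosis, while the FOXO proteins are held in the cytoplasm when PI3K and AKT signalling is active.

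Levels are given as FPKM, which divides read counts by transcript length and library size, so that levels of different genes can be compared per length. Differences are taken after adding 1 and converting to log2, written log2(FPKM + 1), so those of low genes come out too small, and 4-fold means 2 on that scale. A 0 or a low value above 0 can be a failed estimate in this table. RPS28, which encodes a protein of every ribosome, is at 0 in SKUT1 and at 0.370 in SKLMS1. It is at 146 in RKN and at 211 in SKN. A value of 0 is therefore reported only as listed at 0. By an estimate from low values, the libraries held 23900000 to 32800000 reads, at which 1 read on a transcript of 2 kb is worth an FPKM of 0.0169 to 0.0232. Levels of a few hundredths thus rest on a read or so.

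The labelled tissue showed unevenly in the markers of smooth muscle. The summed FPKM of 9 such markers was 6326 in SKUT1 and 910 in SKLMS1, with 206 in RKN and 110 in SKN, and DES (desmin) reached at most 1.10 in any line. Most of the sum in SKUT1 came from TAGLN, CALD1 and ACTA2, at 3816, 1246 and 1085. ACTA2, smooth muscle actin, was 1.37 in SKN and at least 84.7 in the other lines. In SKN 8 of the 9 markers lay below the average of the other lines and 1, SMTN, above it. SMTN was 45.6 in SKN and 22.9 in SKLMS1, its lowest line. MYLK was 11.8 in SKN and 0.805 in RKN, and MYH11 was at most 1.15 in any line. The 7 epithelial markers summed to 549 in SKN, 460 in SKLMS1, 290 in SKUT1 and 55.5 in RKN, nearly all from the keratin genes KRT8, KRT18 and KRT19, while EPCAM stayed at or below 1.80 and CDH1 at or below 1.20. The 5 endothelial markers summed to 40.1 in SKUT1 and 5.05 in SKN, nearly all from TEK and KDR, and to at most 0.0904 in RKN and SKLMS1, with PECAM1 at most 0.115. PTPRC, which marks all white blood cells, was at most 0.213, while the macrophage marker CD68 was 75.3 in SKUT1 and 4.76 to 21.9 elsewhere. The part of other cells or of the state of the cultures in the forkhead differences was not tested. In bulk RNA, fewer cells of a type and less RNA per cell cannot be told apart.

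Of the 43 forkhead genes, 27 reached an FPKM of 1 in some line and are called expressed (62.8%, with 58.2% of all genes), and 16 did not. SKN expressed the most, 22 of 43 at this level, followed by SKUT1 with 19 and RKN and SKLMS1 with 16 each. The order was different at an FPKM of 5, which 15 members reached in SKUT1, 14 in SKN, 13 in SKLMS1 and 8 in RKN. The counts of SKUT1, SKN and SKLMS1 lie close together there, and the share of all genes at that level was not computed. Rescaled to TPM, where every line has the same sum, 24 members reached 1 in SKN, 20 in SKLMS1, 19 in SKUT1 and 18 in RKN. At an FPKM of 0.5, 25 did in SKN, 20 each in SKLMS1 and SKUT1 and 18 in RKN. The order of SKLMS1 and SKUT1 thus depends on scale and cutoff, and shares of all genes were not computed for these settings. Over all genes of the table, the share at an FPKM of 1 was 48.7% in SKN, 48.9% in SKUT1, 48.6% in RKN and 49.8% in SKLMS1. The forkhead shares of 51.2%, 44.2%, 37.2% and 37.2% lay near these values in SKN and SKUT1 and below them in RKN and SKLMS1.

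The expressed members fell into broad and restricted genes. All 4 lines had FOXD1, FOXF2, FOXJ2, FOXJ3, FOXK1, FOXK2, FOXM1, FOXN2, FOXN3, FOXO3 and FOXP4 at or above an FPKM of 1. These were 11 of 27, or 40.7%, where 70.0% of the 13713 genes passing the same filter were at this level in every line. At the other end, 8 of the 27 reached it in a single line, or 29.6% against 12.4% of all such genes. The highest and the lowest line were at least 4-fold apart for 15 of the 27 members (55.6%), against 26.7% of all. Among these 15, FOXA2, FOXL2, FOXQ1 and FOXS1 are listed at 0 in at least 1 line. The median range of the 27 was 2.15 on the log2 scale, against 1.31 for all. Among other families of regulators, 3 of 8 expressed SOX genes, 1 of 6 T-box genes and 10 of 13 KLF genes were present in every line, with median ranges of 1.97, 2.16 and 1.44. The forkhead genes thus lay close to the SOX and T-box genes in range, and no test of these differences was possible.

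**Figure D1:**
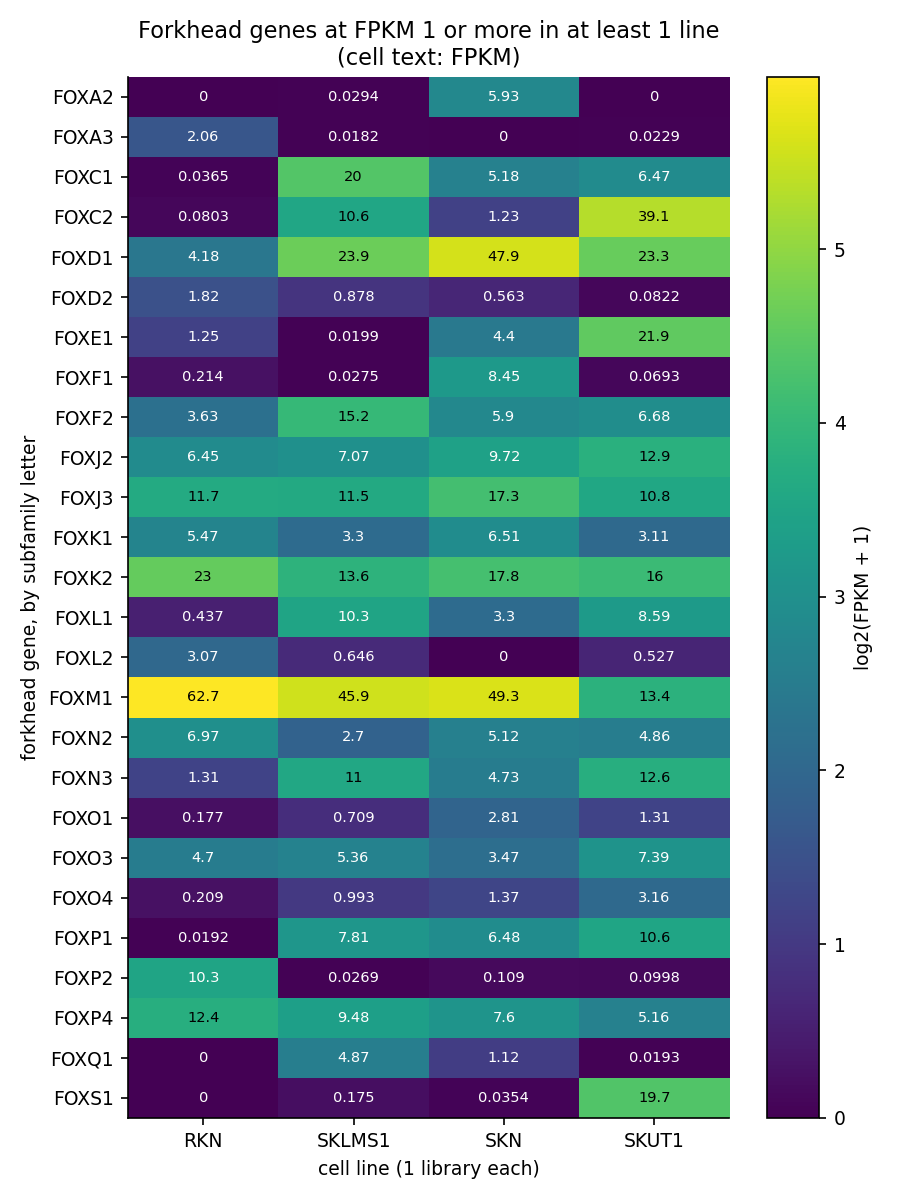
FPKM of 26 of the 27 expressed forkhead genes, as numbers in the cells, with colour for log2(FPKM + 1). Columns are the 4 lines, 1 library each. FOXJ and FOXK rows are even across the lines, while FOXF1 and FOXA2 stand out in SKN, FOXS1 and FOXE1 in SKUT1, and FOXP2 in RKN.

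**Figure D2:**
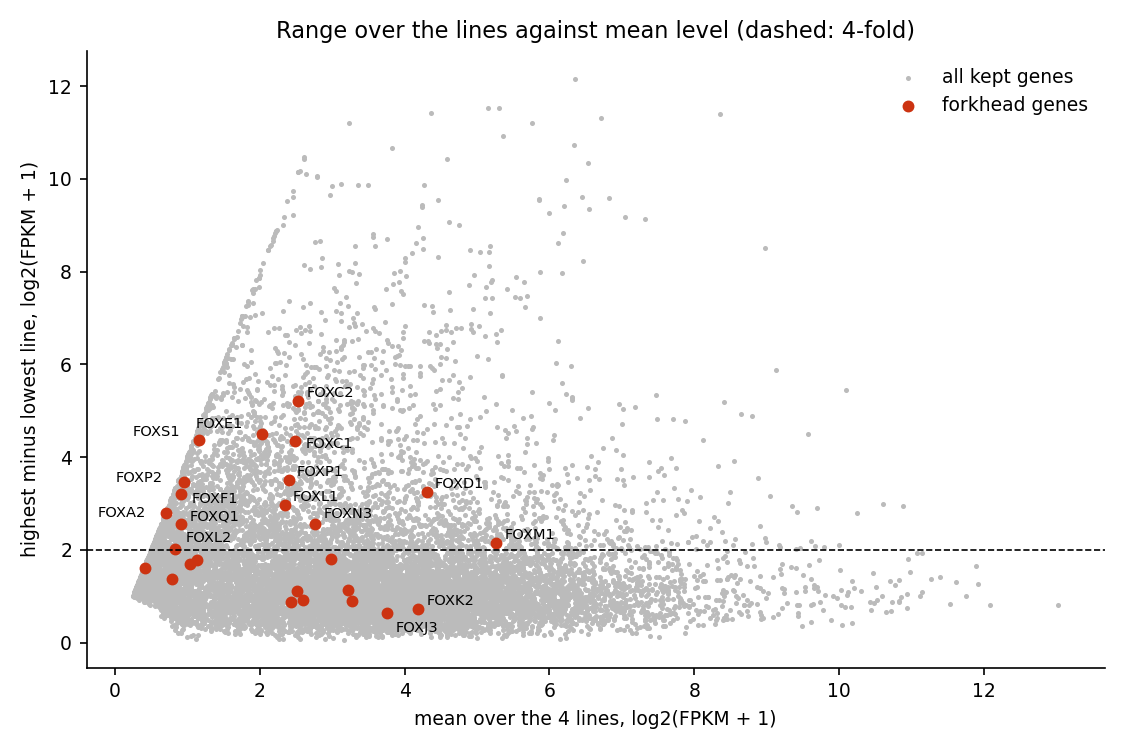
Difference between the highest and the lowest line against the mean over the 4 lines, both from log2(FPKM + 1), for 26 of the 27 expressed forkhead genes (red) and all 13713 genes passing the same filter (grey). FOXC2, at 5.21, is the highest red point drawn and FOXJ3, at 0.63, the lowest. The dashed line marks 4-fold, and 14 of the 26 red points lie on or above it.

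The leading members differed from line to line. In RKN the summed FPKM of the 43 genes was 165, and FOXM1 made up 38.0% of it, FOXK2 13.9% and FOXP4 7.54%. In SKLMS1 the sum was 207, led by FOXM1 (22.2%), FOXD1 (11.6%) and FOXC1 (9.68%). In SKN, FOXM1 and FOXD1 were close to each other, at an FPKM of 49.3 and 47.9. In SKUT1, with a sum of 228, FOXC2 came first at 17.1%, before FOXD1 (10.2%), FOXE1 (9.61%) and FOXS1 (8.65%). FOXM1 ranked sixth there with 5.87%. The pool was thus more concentrated in RKN, where the top 3 genes held 59.4% of the sum, than in SKUT1, where they held 37.0%.

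The subfamilies FOXC, FOXF, FOXL and FOXQ include 2 groups of neighbouring genes. FOXQ1, FOXF2 and FOXC1 lie in this order on chromosome 6, with a coding gene that has no name of its own between FOXQ1 and FOXF2. FOXF1, FOXC2 and FOXL1 lie on chromosome 16, with MTHFSD between FOXF1 and FOXC2. The order is that of the RefSeq annotation of GRCh38.p14. FOXC1 and FOXC2 act in somites, vessels and the eye, FOXF1 and FOXF2 in the mesenchyme of gut and lung, and FOXL1 marks mesenchymal cells under the gut epithelium. FOXQ1 is known from hair follicle and stomach and from studies of cell shape change in carcinoma.

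All 3 genes of the chromosome 6 group were highest in SKLMS1, and FOXC1 and FOXF2 were lowest in RKN. FOXC1 had an FPKM of 20.0 in SKLMS1, 6.47 in SKUT1, 5.18 in SKN and 0.0365 in RKN, a difference of 4.34 on the log2 scale between SKLMS1 and RKN. FOXF2 had 15.2 in SKLMS1, 6.68 in SKUT1, 5.90 in SKN and 3.63 in RKN, a smaller range of 1.80. FOXQ1 was 4.87 in SKLMS1 and 1.12 in SKN, with 0.0193 in SKUT1 and 0 listed for RKN. In FPKM, FOXC1 and FOXF2 ordered the 4 lines alike, but SKUT1 lay above SKN by only 0.27 and 0.15 on the log2 scale. The order of SKUT1 and SKN can thus change with the scaling. SKUT1 had almost no FOXQ1. GMDS, the metabolic gene beyond FOXC1, was likewise 24.1 in SKLMS1 and 3.12 in RKN, with 15.5 in SKN and 12.6 in SKUT1.

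The promoters of these 3 neighbours, which shared their highest line, are printed from RefSeq, 250 bases before to 50 after the start, on GRCh38.p14, with every CG dinucleotide in capitals. That of FOXQ1 spans chr6:1311848-1312147, that of FOXF2 chr6:1389326-1389625 and that of FOXC1 chr6:1609665-1609964, all on the plus strand.
FOXQ1: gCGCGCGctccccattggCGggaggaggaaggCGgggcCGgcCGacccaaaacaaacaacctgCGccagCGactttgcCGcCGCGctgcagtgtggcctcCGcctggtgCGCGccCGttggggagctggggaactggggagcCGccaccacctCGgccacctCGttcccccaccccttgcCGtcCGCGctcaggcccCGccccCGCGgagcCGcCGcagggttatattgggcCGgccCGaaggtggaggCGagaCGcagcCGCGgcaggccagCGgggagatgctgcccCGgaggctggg
FOXF2: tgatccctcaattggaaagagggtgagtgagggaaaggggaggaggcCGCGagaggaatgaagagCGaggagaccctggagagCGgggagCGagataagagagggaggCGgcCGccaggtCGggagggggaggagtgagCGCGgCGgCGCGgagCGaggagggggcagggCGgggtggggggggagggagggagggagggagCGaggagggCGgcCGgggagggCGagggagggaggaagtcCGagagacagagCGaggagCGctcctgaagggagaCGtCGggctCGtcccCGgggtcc
FOXC1: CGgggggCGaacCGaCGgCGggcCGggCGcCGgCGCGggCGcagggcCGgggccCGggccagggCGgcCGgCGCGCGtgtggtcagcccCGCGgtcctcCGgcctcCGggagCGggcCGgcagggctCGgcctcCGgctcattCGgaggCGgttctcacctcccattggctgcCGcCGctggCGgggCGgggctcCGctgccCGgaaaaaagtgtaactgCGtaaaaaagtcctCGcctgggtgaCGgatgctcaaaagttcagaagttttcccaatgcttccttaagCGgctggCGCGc
They hold 35, 26 and 40 CG dinucleotides, where the median of the 35116 promoters in the table is 14. Over the members with an entry, the median was 32.5 for the 30 promoters of 19 of the 27 expressed genes and 16 for the 13 promoters of 13 of the 16 others. The numbers varied among genes present in every line, with 16 for FOXD1 and 55 each for FOXK1 and FOXK2, and among those of a single line, with 1 to 3 in the 2 promoters of FOXP2 and 37 for FOXA3.

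In the chromosome 16 group the neighbours parted. FOXC2 had an FPKM of 39.1 in SKUT1, 10.6 in SKLMS1, 1.23 in SKN and 0.0803 in RKN, the widest range, at 5.21, of the members above 0 in every line. FOXL1, the gene next to it, was 10.3 in SKLMS1, 8.59 in SKUT1, 3.30 in SKN and 0.437 in RKN. FOXF1 was 8.45 in SKN and 0.214 in RKN, 0.0693 in SKUT1 and 0.0275 in SKLMS1, so the line with the most FOXF1 was not a line with much FOXC2. SKN exceeded the next line by 2.96 on the log2 scale for FOXF1. FENDRR, the long noncoding RNA that starts beside FOXF1, was at most 0.0330 in any line, and MTHFSD was even at 2.46 to 3.90. FOXF1 and its paralogue FOXF2 also differed, since FOXF2 was present in every line.

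**Figure D3:**
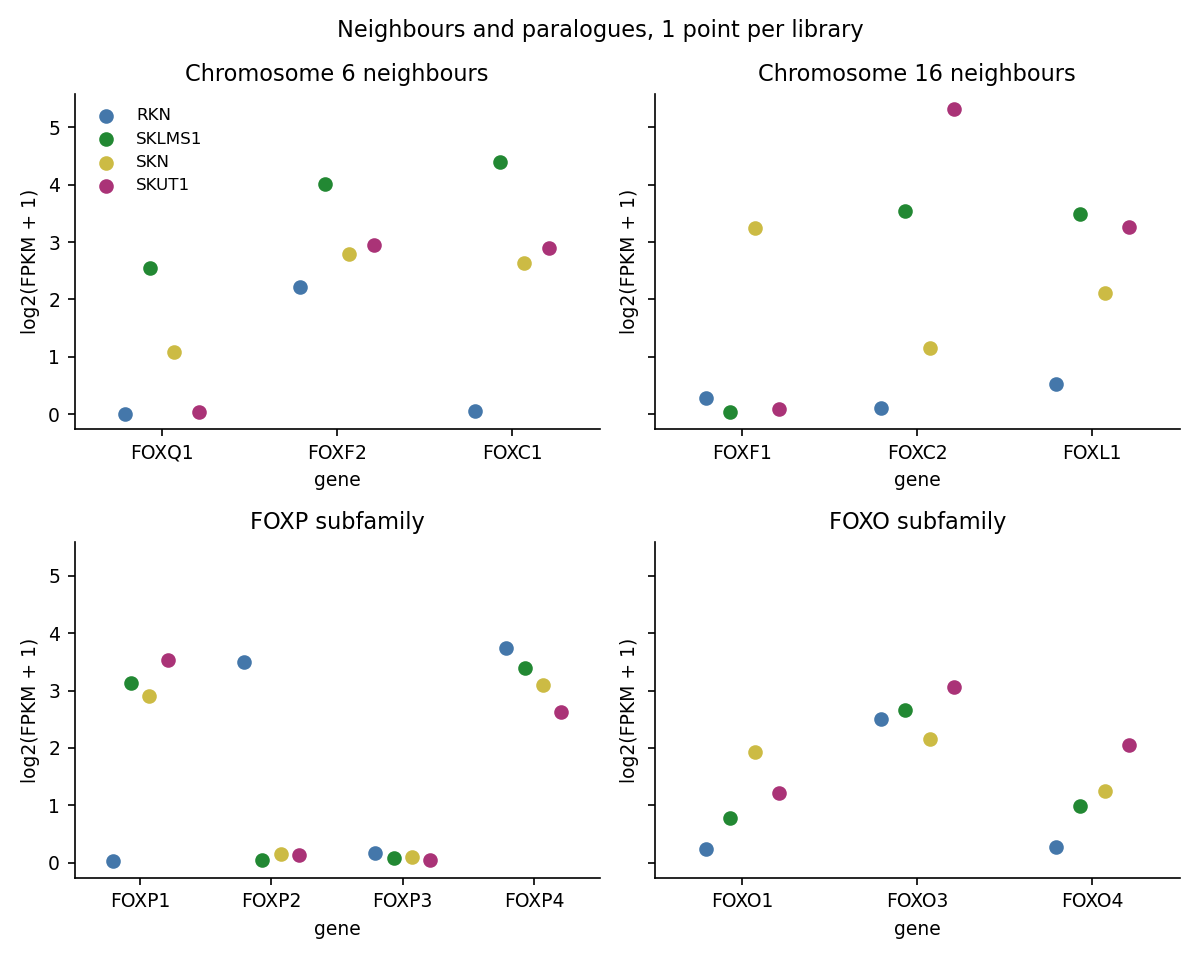
log2(FPKM + 1) of neighbouring genes on chromosomes 6 and 16 and of the FOXP and FOXO subfamilies, 1 point per library, coloured by line. RKN is lowest for FOXF2, FOXC1, FOXC2 and FOXL1, SKN stands alone for FOXF1, and RKN has FOXP2 where the other lines have FOXP1.

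FOXF1, FOXF2 and FOXL1 are known targets of Hedgehog signalling in gut mesenchyme of the mouse, and the pathway's own genes gave no common order. Of 14 listed genes 10 were expressed, and the median difference of a line from the average of the other 3 was 0.43 in SKUT1, -0.20 in RKN, -0.46 in SKLMS1 and -0.65 in SKN. The value for RKN turned to 0.57 when set against the median of the other lines. In SKUT1 3 genes were at least 2-fold above that average and 2 that far below it, where 17.9% and 13.1% of all genes passing the filter were. The numbers above and below were 2 and 2 for RKN (11.6% and 16.6% of all genes), 1 and 3 for SKLMS1 (10.7% and 9.83%) and 1 and 5 for SKN (9.97% and 10.8%). HHIP, a ligand-binding inhibitor induced by the pathway, was 39.1 in SKUT1 and at most 3.65 elsewhere. SMO, the signal transducer, and GLI1, a transcription factor and target, were instead highest in RKN, at 21.3 and 6.13. SMO was 1.504 in SKN, and GLI1 was 0.283 in SKN and 0.276 in SKUT1. SKN had the most FOXF1 and the least SMO, and a link between them was not tested. The co-receptor genes BOC and GAS1 were 9.24 and 6.69 in SKUT1 and at most 0.850 and 0.836 elsewhere. GLI3, mainly a repressor, was 7.74 in SKN and at most 2.54 elsewhere.

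Several members are known from embryonic organs far from smooth muscle. FOXA2, a pioneer factor of endoderm that also acts in uterine glands, was 5.93 in SKN and 0.0294 in SKLMS1, and was listed at 0 in RKN and SKUT1. FOXA3, a liver factor, was 2.06 in RKN, 0.0229 in SKUT1 and 0.0182 in SKLMS1, and was listed at 0 in SKN. FOXA1, also of endoderm, stayed at or below 0.583. The expressed FOXA genes were thus divided between SKN and RKN.

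FOXE1, a thyroid and palate factor, had an FPKM of 21.9 in SKUT1, 4.40 in SKN, 1.25 in RKN and 0.0199 in SKLMS1. SKUT1 exceeded SKN by 2.09 on the log2 scale. FOXS1, known in mice from pericytes and sensory neurons, was 19.7 in SKUT1, 0.175 in SKLMS1 and 0.0354 in SKN, with 0 listed for RKN, and SKUT1 lay 4.14 above SKLMS1. Both genes were thus mainly SKUT1 transcripts, but FOXE1 was also present in SKN and RKN. FOXL2, which maintains granulosa cells of the ovary, was 3.07 in RKN, 0.646 in SKLMS1 and 0.527 in SKUT1 and was listed at 0 in SKN.

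FOXD1, a factor of kidney stroma, was among the more abundant members in every line but RKN. Its FPKM was 47.9 in SKN, 23.9 in SKLMS1, 23.3 in SKUT1 and 4.18 in RKN. RKN lay 2.23 on the log2 scale below SKUT1, the next lowest line. FOXD2 went the other way with 1.82 in RKN and 0.878 in SKLMS1, with 0.563 in SKN and 0.0822 in SKUT1. FOXD2-AS1, the noncoding RNA transcribed beside it from the opposite strand, kept the same order of lines with 4.76, 1.65, 1.61 and 0.142. The library kit marks strand, but the strand setting of the quantification is not given in the sources used here, so reads of the pair may not be fully separated.

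In the FOXP subfamily, FOXP1 and FOXP2 lay in opposite directions in RKN. FOXP1, a repressor that acts in heart, lung and lymphocytes, had an FPKM of 0.0192 in RKN, 6.48 in SKN, 7.81 in SKLMS1 and 10.6 in SKUT1. FOXP2, known for its part in speech and for lung development, was 10.3 in RKN, 0.109 in SKN, 0.0998 in SKUT1 and 0.0269 in SKLMS1. RKN lay 2.88 below the next lowest line for FOXP1 and 3.35 above the next highest for FOXP2 on the log2 scale. FOXP4, the third paralogue of this kind, was 12.4 in RKN and 9.48 in SKLMS1, with 7.60 in SKN and 5.16 in SKUT1. FOXP3, which defines regulatory T cells, was at most 0.129. Summed over the subfamily, RKN had 22.9, SKLMS1 17.4, SKUT1 15.9 and SKN 14.3. The summed level thus varied less than FOXP1 or FOXP2.

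FOXO1, FOXO3 and FOXO4 induce genes of cell-cycle arrest, stress defence and autophagy when growth factor signalling is low. FOXO3 was the most abundant of them in each line, at 7.39 in SKUT1 and 5.36 in SKLMS1, with 4.70 in RKN and 3.47 in SKN. FOXO3B, a near-identical copy outside the rule, was 2.61 in RKN and 0.533 to 0.874 elsewhere, and reads of the pair cannot be separated with certainty. FOXO1 was 2.81 in SKN, 1.31 in SKUT1, 0.709 in SKLMS1 and 0.177 in RKN. FOXO4 was 3.16 in SKUT1, 1.37 in SKN, 0.993 in SKLMS1 and 0.209 in RKN. FOXO1 and FOXO4 were both lowest in RKN, with ranges of 1.69 and 1.78, while FOXO3 varied by 0.91.

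The listed FOXO target genes were uneven. Of 28 expressed targets, 8 were at least 2-fold above the average of the other lines in SKUT1 and 3 were that far below it, with 17.9% and 13.1% of all genes. The numbers above and below were 5 and 5 in SKLMS1 (10.7% and 9.83%), 2 and 8 in RKN (11.6% and 16.6%) and 1 and 8 in SKN (9.97% and 10.8%). The list medians were 0.43 in SKUT1 and 0.01 in SKLMS1, with -0.45 in RKN and -0.48 in SKN, beside -0.03, -0.06, -0.04 and -0.05 for all genes. CDKN1A, the p21 inhibitor of the cell cycle and also a p53 target, was 348 in SKUT1 and 5.92 to 12.8 elsewhere. GABARAPL1, an autophagy gene, was 104 in SKUT1, 24.6 in SKLMS1, 15.8 in SKN and 0.678 in RKN. CITED2, a transcriptional coregulator, was 276 in SKUT1, 60.0 in SKLMS1, 13.6 in SKN and 11.9 in RKN. Other targets went another way, since SESN3, a stress-induced inhibitor of mTOR signalling, and the cyclin gene CCND2 were 17.1 and 11.6 in RKN and 9.07 and 3.24 in SKUT1, with at most 0.341 and 0.392 in the other lines. TNFSF10, the death ligand TRAIL, was 10.3 in SKLMS1 and at most 0.0738 elsewhere.

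Upstream of the FOXO proteins, 23 regulators were all expressed and had medians near 0, at 0.19 in SKUT1, 0.06 in RKN, -0.12 in SKLMS1 and -0.20 in SKN. Of them 2 were at least 2-fold above the average of the other lines in each line. In SKUT1, RKN, SKLMS1 and SKN, 1, 3, 1 and 2 were that far below it. For 23 genes these counts lie near or below the shares of all genes given above, and are too small to read further. Single kinases differed widely. The kinase genes SGK1 and SGK3 were highest in RKN, at 113 and 9.84, with at most 23.1 and 3.27 elsewhere, whereas SGK2 was 23.2 in SKLMS1 and at most 0.0520 in the other lines. STK4, a kinase that acts on FOXO proteins under oxidative stress, was 25.4 in SKN and at most 10.7 elsewhere. RKN had the least FOXO1 and FOXO4, though not the least FOXO3, and the most SGK1 and SGK3. A link between these levels was not tested.

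FOXO1 also acts in the endometrial stroma when it decidualizes in preparation for pregnancy. Of 11 genes listed for that state, 5 were expressed. The median was -1.21 in RKN and -0.27 in SKLMS1, with 0.13 in SKN and 0.67 in SKUT1. The value for RKN was -0.48 with a pseudocount of 5 and -0.040 with all 11 genes, and that for SKN lay between -0.25 and 0.84 when single lines were left out. In RKN 3 of the 5 were at least 2-fold below the average of the other lines, against 1 in SKLMS1 and 1 in SKN (16.6%, 9.83% and 10.8% of all genes), and 2 in SKUT1 and 1 each in SKLMS1 and SKN were that far above it (17.9%, 10.7% and 9.97%). CEBPB, a transcription factor, was 144 in SKN, 48.8 in SKLMS1, 45.0 in SKUT1 and 9.34 in RKN, and BMP2, a secreted growth factor, was 2.46 in SKN, 1.94 in SKUT1, 0.804 in SKLMS1 and 0.0101 in RKN. The homeobox genes HOXA10 and HOXA11 were highest in SKUT1, at 16.4 and 5.60, with at most 6.06 and 1.77 elsewhere. IGFBP1 was 7.46 in SKLMS1, 0.565 in SKUT1 and 0.0205 in RKN and was listed at 0 in SKN. The prolactin gene PRL and the progesterone receptor gene PGR were at most 0.0494 in any line, and HAND2, WNT4 and LEFTY2 were at most 0.233. SST, the somatostatin gene, was listed at 0 throughout.

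FOXM1 was the most abundant forkhead gene in RKN and SKLMS1. Its FPKM was 13.4 in SKUT1, 45.9 in SKLMS1, 49.3 in SKN and 62.7 in RKN. SKUT1 lay 1.71 on the log2 scale below SKLMS1, the next lowest line, and 2.15 below RKN.

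Genes that FOXM1 is known to activate in mitosis differed in the same direction. All 26 listed targets were at least 2-fold below the average of the other lines in SKUT1, with a median of -2.23, where 13.1% of all genes were that far below. The medians were 0.77 in RKN, 0.79 in SKLMS1 and 0.37 in SKN. In these lines 9, 7 and 4 of the 26 were at least 2-fold above (11.6%, 10.7% and 9.97% of all genes). In SKN 1, NEK2, was at least 2-fold below (10.8% of all genes). Without SKUT1 among the other lines the medians became 0.08, 0.14 and -0.30, so RKN, SKLMS1 and SKN were close to each other. CDC20, which starts the exit from mitosis, was 18.4 in SKUT1 and 149 to 223 elsewhere, KIF20A, a kinesin of cell division, 5.91 against 46.2 to 75.1, and PLK1, a mitotic kinase, 12.3 against 58.9 to 116. UBE2C, the ubiquitin-conjugating enzyme that works with CDC20, was 48.2 against 280 to 498, and CKS2, a subunit of cyclin-dependent kinases, 52.7 against 271 to 526. NEK2, a centrosome kinase, was 3.44 in SKUT1, 7.36 in SKN, 24.0 in SKLMS1 and 46.1 in RKN. The narrowest ranges, 1.23 to 1.57 on the log2 scale, were those of PRC1 (30.2 in SKUT1 and 62.6 to 72.2 elsewhere), CENPE (3.69 and 10.2 to 11.9), SKP2 (10.01 and 19.9 to 30.3) and CDC25B (22.6 and 45.2 to 69.3). Growth phase and division rate of the cultures are not in the labels, and their part in this difference was not tested. That cell division genes are low in SKUT1 was known from these data when the list was chosen, so it is no independent support.

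Partners of FOXM1 at these promoters did not all follow. MYBL2, the B-MYB factor, was 9.61 in SKUT1, 57.5 in RKN, 98.3 in SKN and 151 in SKLMS1, and RBBP4, a histone-binding subunit of MuvB, was 9.56 in SKUT1, 15.4 in SKLMS1, 19.0 in SKN and 39.4 in RKN. LIN37, LIN52 and LIN54, other subunits of the MuvB complex, were 8.87, 8.23 and 4.29 in SKUT1, against 8.42 to 9.64, 7.80 to 25.5 and 1.90 to 5.97 in the other lines. LIN9 was 2.44 in SKUT1 and 5.38 to 9.12 elsewhere. Of these 6 genes, 3 were at least 2-fold below the average of the other lines in SKUT1 (median -0.82, with 13.1% of all genes), and none in RKN, SKLMS1 or SKN, where the medians were 0.43, -0.22 and 0.10 and 1, 1 and 2 were that far above (11.6%, 10.7% and 9.97% of all genes).

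**Figure D4:**
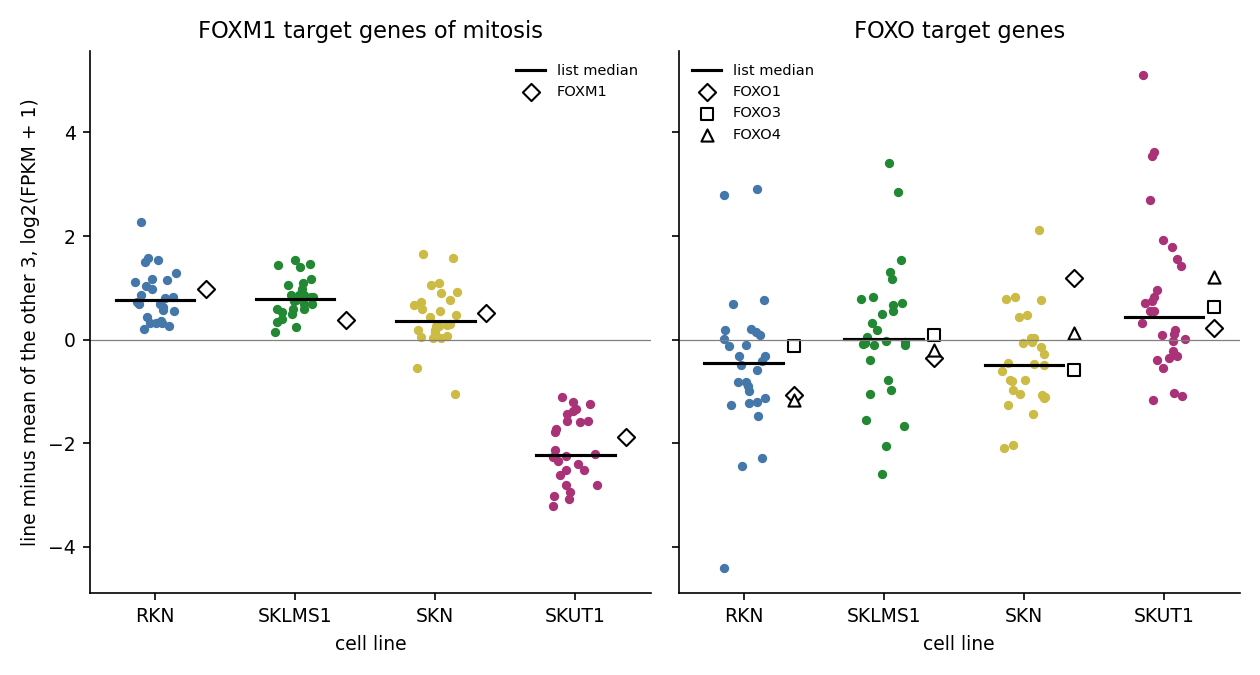
Difference of each line from the average of the other 3 on log2(FPKM + 1), for 26 listed FOXM1 targets (left) and 28 expressed FOXO targets (right). Points are genes, black bars list medians, and open symbols FOXM1 or the FOXO genes. Every FOXM1 target lies below -1 in SKUT1, with FOXM1 itself at -1.89, while the FOXO targets scatter widely in all lines.

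The letters of 2 motifs were searched on both strands in the promoter table, as a description only. The CHR motif TTTGAA, which the MuvB complex with B-MYB and FOXM1 is known to bind, was in 15 of 30 promoters of 22 FOXM1 targets (50%), and in 15.2% of all 35116 promoters. Its variant TTCGAA was in 2 of the 30 (6.67%), against 1.45%. The forkhead motif GTAAACA was in 2 of 37 promoters of 26 FOXO targets (5.41%), in 1 of the 30 of FOXM1 targets (3.33%) and in 3.42% of all. Among the expressed forkhead genes it was in 2 of 30, belonging to FOXO4 and FOXP1.

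The expressed FOXJ and FOXK genes, like FOXO3, FOXP4 and FOXN2, were among the more even members. FOXK2, which with FOXK1 regulates metabolic and autophagy genes, had an FPKM of 23.0 in RKN, 17.8 in SKN, 15.96 in SKUT1 and 13.6 in SKLMS1. FOXK1 was 6.51 in SKN, 5.47 in RKN, 3.30 in SKLMS1 and 3.11 in SKUT1. FOXJ3 was 17.3 in SKN, 11.7 in RKN, 11.5 in SKLMS1 and 10.8 in SKUT1. These genes varied by less than 1 on the log2 scale, at 0.72, 0.87 and 0.63. FOXJ2 was 12.9 in SKUT1, 9.72 in SKN, 7.07 in SKLMS1 and 6.45 in RKN, a range of 0.90. FOXN2 was 6.97 in RKN, 5.12 in SKN, 4.86 in SKUT1 and 2.70 in SKLMS1, a range of 1.11. FOXN3, a repressor linked to cell-cycle checkpoints, was uneven, with 12.6 in SKUT1, 11.0 in SKLMS1, 4.73 in SKN and 1.31 in RKN, a range of 2.56. FOXN3-AS1, its antisense RNA, was 2.57 in SKLMS1, 1.45 in SKUT1, 0.949 in SKN and 0.851 in RKN.

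The 16 members below an FPKM of 1 in every line were mostly factors of specialized tissues. FOXD4 came closest, at 0.792 in RKN, and it has near-identical copies among which reads may be split. FOXE3, a lens factor, was 0.684 in RKN and listed at 0 in the other lines, and FOXA1 was 0.583 in SKN. FOXB1, FOXJ1 and FOXN4 followed at 0.378, 0.316 and 0.254, all in RKN. FOXD3, FOXH1, FOXP3, FOXR1 and FOXI1 were at most 0.191. FOXB2, FOXI2, FOXI3, FOXN1 and FOXR2 were listed at 0 in all 4 lines. FOXJ1 is the master factor of motile cilia, and 5 of 19 listed genes of its programme reached an FPKM of 1 in some line, where 58.2% of all genes did. They were TUBA1A (98.7 to 219), a tubulin of many cell types, RFX2 (1.57 to 3.10), TPPP3 (at most 2.82), RFX3 (at most 2.26) and CCDC40 (at most 2.00). Their medians were 0.50 in RKN and -0.04 in SKLMS1, with -0.42 in SKUT1 and -0.54 in SKN. TPPP3 in RKN and RFX3 in SKN were at least 2-fold above the average of the other lines (1 of 5 each, with 11.6% and 9.97% of all genes).

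RKN was the line with the most expressed forkhead genes at a low level. Of the 27, 13 were at least 2-fold below the average of the other lines in RKN (48.1%, with 16.6% of all genes), and 3 were that far above it (11.1%, with 11.6%). The 3 were FOXP2, FOXA3 and FOXL2, which reached an FPKM of 1 only in RKN. The 13 include FOXS1, which passed the filter only through SKUT1 and was also at least 2-fold below in SKLMS1 and SKN. FOXS1 and FOXQ1, both among the 13, are listed at 0 in RKN, which can be a failed estimate. The median difference of the 27 was -0.94 in RKN and -0.16 in SKLMS1, with 0.14 in SKN and -0.06 in SKUT1. In SKUT1 7 were above and 5 below (17.9% and 13.1% of all genes), in SKLMS1 6 and 5 (10.7% and 9.83%), and in SKN 5 and 4 (9.97% and 10.8%). Rescaling to TPM, where every column has the same sum, shifted the median of all genes by 0.28 in RKN and by -0.29 in SKUT1. On that scale 12 members were at least 2-fold below in RKN and 6 above, with a median of -0.87, and in SKUT1 8 were below and 7 above. By quantile normalization they were 12 below and 5 above in RKN. The shares of all genes given here are those of FPKM, and none were computed on these other scales.

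Pairs of lines were also compared, at 4-fold or more, with values listed at 0 taken as 0. Compared with RKN, SKUT1 had 8 members higher and 2 lower, where 10.2% and 5.03% of all genes passing the filter were so. SKLMS1 had 7 higher and 1 lower than RKN, against 6.33% and 3.46% of all genes, and SKN had 6 higher and 2 lower, against 5.78% and 3.86%. FOXC1, FOXD1 and FOXP1 were higher in all 3 of these comparisons, which share the RKN library. Between SKN and SKLMS1, 4 members were higher in SKN and 1 in SKLMS1 (3.60% and 4.30% of all genes). Between SKUT1 and SKLMS1, 2 were higher in SKUT1 and 1 in SKLMS1 (7.28% and 4.79%). Between SKUT1 and SKN, 3 were higher in each (7.69% in SKUT1 and 4.40% in SKN). With 27 members, shares of 1 or 2 genes lie near these backgrounds. The split moved with the scaling in some pairs. On the TPM scale SKUT1 had 8 members higher and 5 lower than RKN, 2 higher and 2 lower than SKLMS1 and 2 higher and 4 lower than SKN, and by median-of-ratios scaling SKN had 6 higher and 1 lower than RKN. FOXD1 in SKUT1 against RKN and FOXE1 in SKUT1 against SKN were under 4-fold on the TPM scale, and FOXE1 also by quantile normalization. The shares of all genes are those of FPKM and were not computed on the other scales.

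A few members separated a single line from each of the other 3 by at least 4-fold. Highest in SKN were 3 of 27 (1.34% of all genes), FOXA2 and FOXF1 among them. Highest in SKUT1 were FOXE1 and FOXS1 (2 of 27, with 4.06%), and highest in RKN was FOXP2 (1 of 27, with 1.37%). No member was highest in SKLMS1 by this rule (1.33% of all genes). FOXA2, FOXF1, FOXS1 and FOXP2 reached an FPKM of 1 only in the line where they were highest. They passed the filter through that line alone, so these counts are no independent support. Lowest were FOXC1, FOXD1 and FOXP1 in RKN (3 of 27, with 1.65%). On the TPM scale this count was 2, without FOXD1. No member was lowest in SKLMS1, SKN or SKUT1, where 0.306%, 0.583% and 0.824% of all genes were.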

How the data were processed

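Poly(A) RNA of 4 lines was measured in a single library each. Per the submitters' processing notes, STAR, Cufflinks and the build hg19 were used, with no versions. The sources used here give no annotation, strand setting or filter. The authors deposited FPKM per gene symbol in a table of 23610 rows. Left out were 28 rows whose symbol had become a spreadsheet date number and 5 with spreadsheet errors, which left 23577 genes.

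Values were compared as log2(FPKM + 1), with a pseudocount of 1, for the 13713 genes that reached an FPKM of 1 in some line. With 1 library per line no test was computed. Calls were a 4-fold difference between lines, and 2-fold from the mean of the other lines for 8 lists of related genes. The members and lists were chosen with earlier results of these data known. Members at or above an FPKM of 1 are named with every value, except that 1 member and 2 listed genes are counted but not reported here. Short lists are named whole; from those of 12 or more genes, the 6 expressed genes of widest range, and for FOXM1 targets also the 4 of narrowest.

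Read totals are not in the table. They were estimated from low values of genes with a single transcript in GENCODE 29, assuming fragments of 200 bases, as 32800000 (RKN), 29900000 (SKLMS1), 25700000 (SKN) and 23900000 (SKUT1). At these totals 64.6 to 68.4% of low values lay within 0.1 of a whole read, a share the fit itself raises. No counts were recovered. Promoters and gene order came from RefSeq on GRCh38.p14, in which all 43 symbols were found, 32 with a promoter. Code for the calls of a line against the others was run on simulated data with planted shifts well above the cutoff. That checks the code only, since recovery was fixed in advance, and says nothing on calls of low genes or single libraries. Python 3.11.15, pandas 2.3.3, numpy 2.4.6 and matplotlib 3.10.9 were used.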

Additional observations from a re-analysis of the deposited data

How the results depend on the processing

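Differences between the highest and the lowest line kept their sign for all 27 members under TPM, quantile and median-of-ratios scaling. Under pseudocounts of 0.1 and 5 the sign cannot change. Both lines were also picked as the extremes of these values, so the kept signs say little. Over all these settings, 47 of 135 values moved by 1.5-fold or more. FOXC1 in SKLMS1 against RKN was 7.20 with a pseudocount of 0.1, 2.31 with 5 and 5.26 on the TPM scale, and FOXP2 in RKN against SKLMS1 was 6.36, 1.61 and 4.51. Of the counts of members, 33 moved by over 1.5 times or to or from 0, and 123 did not. Shares of all genes were not computed under these other settings, so the changed counts stand without them. The median of all genes shifted on the TPM scale by 0.28 in RKN and -0.29 in SKUT1, and by quantile normalization by 0.11 and -0.14. At an FPKM of 5, 15 members were detected in SKUT1, 14 in SKN, 13 in SKLMS1 and 8 in RKN. Members 4-fold apart became 14 for RKN and SKN with a pseudocount of 0.1. With a pseudocount of 5 they became 1 for RKN and SKLMS1, 2 for RKN and SKN, 3 for RKN and SKUT1, 1 for SKLMS1 and SKN and 3 for SKN and SKUT1. At 8-fold they were 4 for RKN and SKLMS1, 3 for RKN and SKN, 5 for RKN and SKUT1 and 2 for SKLMS1 and SKN.

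Members highest in RKN numbered 3 with a pseudocount of 0.1, 0 with 5 and 2 on the TPM scale. Those highest in SKLMS1 were 1 with 0.1. In SKN they were 1 with a pseudocount of 5 and 1 at 8-fold, and in SKUT1 1 with a pseudocount of 5, 1 on the TPM scale, 1 by quantile normalization and 1 at 8-fold. Members lowest in RKN were 5 with a pseudocount of 0.1, 0 with 5, 2 on the TPM scale and 0 at 8-fold. Those lowest in SKLMS1 and in SKN were 1 each with 0.1, and in SKUT1 1 on the TPM scale. A pseudocount of 5 damps low genes by construction. Leaving out 1 comparison line gave 0 to 1 highest in SKLMS1 (1 without SKN or without SKUT1), 3 to 6 lowest in RKN (6 without SKN), 0 to 1 lowest in SKLMS1 (1 without RKN) and 0 to 1 lowest in SKN (1 without RKN).

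Of 352 list medians, 337 stayed within 1.5-fold of the reported value and 34 were of the opposite sign. Leaving out a line moved the FOXM1 target median over 0.083 to 1.14 in RKN, 0.14 to 1.09 in SKLMS1 and -0.30 to 0.74 in SKN, and over -2.23 to -2.14 in SKUT1. The Hedgehog median ran from -0.61 to 0.68 in RKN, and was 0.57 there against the median of the other lines; in SKN it was -0.046 with no filter. The decidual median in RKN was -2.72 and -0.48 with pseudocounts of 0.1 and 5 and -0.040 with no filter. In SKN it ran from -0.25 to 0.84 without single lines and was 0.79 against the median of the others, and in SKUT1 it was 1.69 with a pseudocount of 0.1. The cilia median in SKUT1 was 0.63 at a minimum FPKM of 5. The list of 4 expressed antisense and neighbouring genes had a median of -0.47 for RKN (-2.11 at that minimum), 0.48 for SKLMS1 (1.36), 0.05 for SKN and 0.13 for SKUT1. The cause of these changes was not tested. No paired analysis was possible because each line has a single library.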
